A study of Homo sapiens with 6 samples.

Results

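The let-7 passenger strands are the RNAs cut from the 3′ arm of the let-7 hairpins. They were taken as every miRNA in the deposited table whose name starts with hsa-let-7 and ends with -3p, which gave 9 of 413 miRNAs. These were hsa-let-7a-3p, hsa-let-7a-2-3p, hsa-let-7b-3p, hsa-let-7c-3p, hsa-let-7d-3p, hsa-let-7e-3p, hsa-let-7f-1-3p, hsa-let-7f-2-3p and hsa-let-7i-3p. The table held 181 miRNAs from a 3′ arm in all, and the let-7g passenger strand was not among the names that met this rule. The 5p strands of the same hairpins were used only as the denominator of a ratio between the arms.

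The small RNA libraries come from MDA-MB-231 cells, a long-established human line of triple-negative breast cancer. Cells exposed for 24 h to 2 µM Withaferin A (WA), a steroidal lactone of the plant Withania somnifera, gave 3 libraries, and control cells gave 3 more. The study's methods describe the controls as vehicle-treated with DMSO, whereas the sample labels call them untreated and name no DMSO, and they are called vehicle here. A single cell line, a single concentration and a single exposure time were compared, and no genetic change was introduced in either group. The study calls the replicates independent, and the labels do not say whether they came from separate cultures, so the p-values measure the spread between these libraries, which may be technical.

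let-7 is among the most conserved miRNA families and is best known for holding back proliferation and keeping cells differentiated. Each let-7 hairpin is cut by Drosha and Dicer into a duplex of a 5p and a 3p strand. An Argonaute protein usually keeps the 5p strand as the guide, and the 3p strand is mostly degraded. The level of a 3p strand therefore depends on how much hairpin is made and processed, and on which strand is kept. A strand with a U or an A at its 5′ end is usually favoured by human Argonaute 2.

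The mature sequences were taken from RefSeq (GRCh38.p14) for 8 of the 9 strands, not including let-7f-2-3p. They are shown because strands this alike can exchange reads, and because the seed, bases 2 to 8 from the 5′ end, sets which transcripts a miRNA can pair with. The seed is in capitals.
let-7a-3p: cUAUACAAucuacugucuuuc
let-7b-3p: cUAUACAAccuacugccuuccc
let-7f-1-3p: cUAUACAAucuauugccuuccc
let-7d-3p: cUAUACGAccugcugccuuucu
let-7e-3p: cUAUACGGccuccuagcuuucc
let-7c-3p: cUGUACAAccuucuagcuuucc
let-7a-2-3p: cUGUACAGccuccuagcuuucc
let-7i-3p: cUGCGCAAgcuacugccuugcu

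let-7a-3p, let-7b-3p and let-7f-1-3p shared the seed UAUACAA, and each of the other 5 strands had a seed of its own. All 8 strands began with C. The 5p strand began with U in every one of these hairpins except that of let-7d, where it began with A. Aligned from the first base without gaps, the 28 pairs of strands differed at 2 to 11 positions. let-7b-3p and let-7f-1-3p differed at only 2, C9U and C13U, counted from 1 at the 5′ end. let-7a-2-3p differed at 2 positions from let-7c-3p (G8A and C12U) and from let-7e-3p (G3A and A7G). The way reads shared between similar miRNAs were counted is not given in the sources used here, so the split between such strands is uncertain. let-7a-2-3p, let-7c-3p and let-7e-3p ended in GCUUUCC. This run was found in 4 of the 368 miRNAs of the table that have a RefSeq sequence, the fourth being miR-185-3p.

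In GRCh38 the hairpins of let-7a-1 (chr9:94175957-94176036), let-7f-1 (chr9:94176347-94176433) and let-7d (chr9:94178834-94178920) follow each other on the plus strand. All 3 lie inside the long noncoding RNA gene MIRLET7A1HG of GENCODE release 44, on its strand and overlapping some of its annotated exons. The hairpins of let-7a-3 (chr22:46112749-46112822) and let-7b (chr22:46113686-46113768) lie in MIRLET7BHG. Because let-7a-1 and let-7a-3 give the same let-7a-3p, its reads cannot be assigned to either locus. let-7a-2 (chr11:122146522-122146593, minus strand) is intronic in MIR100HG, let-7e (chr19:51692786-51692864) is intronic in SPACA6, and let-7f-2 (chrX:53557192-53557274, minus strand) is intronic in HUWE1. let-7c (chr21:16539828-16539911) lies in MIR99AHG. let-7i (chr12:62603686-62603769) overlaps an exon of ENSG00000275180, a long noncoding RNA gene. It is also intronic in MIRLET7IHG, another long noncoding RNA gene on its strand. The let-7d and let-7f-1 hairpins are shown because let-7d-3p and let-7f-1-3p were the strands whose groups did not overlap both in level and in the ratio between the arms, among those tested. The 5p and 3p strands are in capitals, in that order.
MIRLET7D: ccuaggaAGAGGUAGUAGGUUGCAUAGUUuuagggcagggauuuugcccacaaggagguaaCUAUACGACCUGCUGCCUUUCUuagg
MIRLET7F1: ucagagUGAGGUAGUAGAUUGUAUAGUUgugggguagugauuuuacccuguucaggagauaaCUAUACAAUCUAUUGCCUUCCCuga

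The values are reads per miRNA that the authors divided by a size factor of each library, called normalized values here. Within a library each value was a whole multiple of the same step, which is taken below as 1 read. The 3 vehicle libraries held between 710878 and 4778066 reads and the 3 WA libraries between 156442 and 2232934. Where a strand is listed at 0, up to 3 reads remain possible by counting error alone, and these come to 17.4 on the normalized scale in WA replicate 1, the shallowest library, but to 0.857 in vehicle replicate 2, the deepest. Across the 413 miRNAs, which are no independent points, log2(normalized value + 1) had a Pearson correlation of 0.964 between WA replicates 1 and 2 and 0.987 between vehicle replicates 2 and 3. WA replicate 3 stood apart from its group, at 0.630 and 0.641, and vehicle replicate 1 from its own, at 0.785 and 0.792. With vehicle replicates 1 to 3, WA replicate 3 correlated at 0.772, 0.797 and 0.774, higher than with its own group. All 5 markers fixed for a mesenchymal-like breast cancer line were measured, and their summed normalized value ran from 280033 to 586375 in vehicle and from 311456 to 353235 in WA libraries. Of 6 epithelial markers 4 were measured, miR-200a-3p, miR-200b-3p, miR-200c-3p and miR-429. Their summed normalized value ran from 192 to 1820 in the vehicle libraries, was 1240 in WA replicate 3, and all 4 were listed at 0 in WA replicates 1 and 2. miR-31-5p, a marker of the first list, was at 2777 and 3005 in WA replicates 1 and 2 and between 5.43 and 33.9 in the other 4 libraries. Of 6 blood cell and 4 liver and muscle markers, miR-122-5p alone was measured, at 14.3 or less. WA replicates 1 and 2 therefore differed from the other 4 libraries in the epithelial markers and miR-31-5p. WA replicate 3 and vehicle replicate 1 had lower miR-21-5p and higher miR-221-3p than the rest of their groups, which the sum does not show separately. In WA replicates 1 to 3 miR-21-5p was at 277045, 290979 and 27029, and miR-221-3p at 19948, 19091 and 169488. In vehicle replicates 1 to 3 miR-21-5p was at 134806, 403216 and 347168, and miR-221-3p at 62289, 13432.5 and 10869. The part of these differences in the results below was not tested.

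let-7d-3p was the most abundant let-7 passenger strand in vehicle-treated cells and was lower in every WA library. Vehicle replicates 1 to 3 had normalized values of 3539, 907 and 1847, from 2613, 3174 and 6044 reads. WA replicates 1 to 3 had 34.8, 28.6 and 142.0, from 6, 16 and 189 reads. The groups did not overlap, and the highest WA value, in replicate 3, lay well under the lowest vehicle value. The mean fell from 2098 ± 1334 (SD, n = 3) to 68.5 ± 63.8 (SD, n = 3), which makes vehicle-treated cells 30.6-fold higher. In these bulk samples, fewer cells holding a strand and less of it per cell cannot be told apart. By limma on log2(normalized value + 1), fitted over the 327 miRNAs that reached a value of 10 in 3 or more libraries, the log2 fold change was -5.09 (standard error 0.958, 95% interval -7.32 to -2.85) with an adjusted p of 0.0300. let-7d-3p was the only let-7 passenger strand of the 8 tested with an adjusted p under 0.05, where 5.50% of all tested miRNAs were called. The median log2 fold change of all tested miRNAs was -0.91, and let-7d-3p differed from it by -4.18. With upper-quartile scaling that median moved to -0.66 and the log2 fold change of let-7d-3p to -4.82. Leaving out 1 library kept its log2 fold change between -5.80 and -4.60. The limma adjusted p was 0.00168 without WA replicate 3 and rose to between 0.0582 and 0.175 without any of the other libraries.

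**Figure D1:**
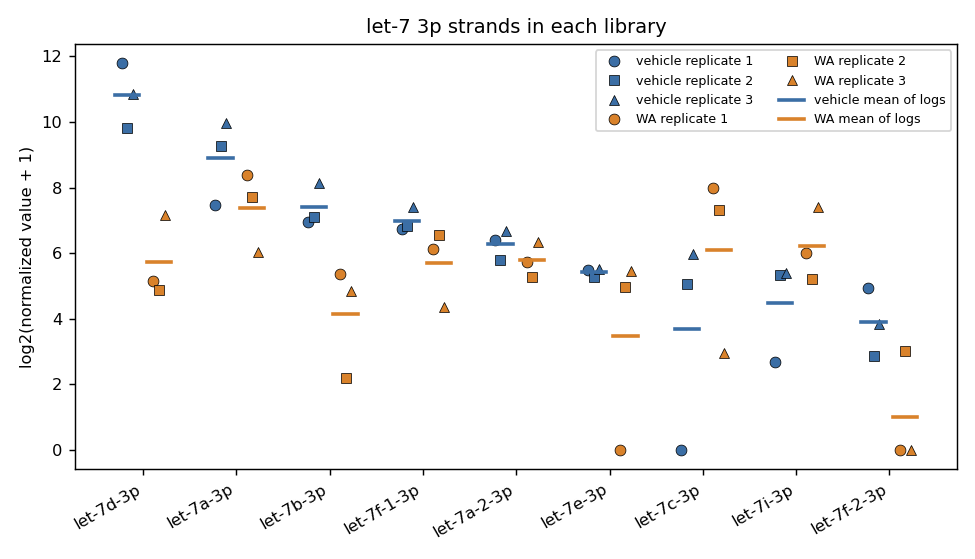
Normalized value of each let-7 3p strand in each library, on a log2(normalized value + 1) axis, with strands ordered by their vehicle mean. Points are single libraries, with the replicate given by the shape, bars are the means of the plotted logs, and a library listed at 0 sits at 0. let-7d-3p shows the widest gap between the groups, and let-7c-3p and let-7i-3p are the strands whose WA bar lies above the vehicle bar.

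let-7b-3p was also lower in every WA library. Its normalized values were 122, 138 and 280 with vehicle, against 40.6, 3.57 and 27.8 with WA, or 90, 482 and 917 reads against 7, 2 and 37. The groups did not overlap, with the lowest WA value in replicate 2, where it rests on 2 reads. The log2 fold change was -3.26 (standard error 1.29, 95% interval -6.27 to -0.25), with an unadjusted p of 0.0374 and a limma adjusted p of 0.176, so the difference did not pass the correction. Without WA replicate 3 the adjusted p was 0.0436. let-7b-3p and let-7d-3p were the 2 strands of 8 that met the criteria the study used, which asked for a fold change beyond 1.5 on the log2 scale together with a p under 0.05, taken here as unadjusted because the study does not say. Among all tested miRNAs 21.7% met them with lower values in WA-treated cells.

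let-7f-1-3p, from the hairpin next to that of let-7d, had normalized values of 106, 113 and 168 with vehicle, against 69.6, 92.9 and 19.5 with WA. All 3 WA values lay under the lowest vehicle value, by a small margin in replicate 2. On the log2 scale the difference was -1.31 (standard error 1.09, limma adjusted p of 0.450), and it was -0.64 without WA replicate 3. let-7d-3p, let-7b-3p and let-7f-1-3p were thus the 3 strands whose groups did not overlap, all with lower values in WA-treated cells. Of all tested miRNAs 19.6% did so. For each of the 3 the exact permutation test gave a two-sided p of 0.1, the smallest that 3 libraries against 3 allow.

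let-7a-3p, the second most abundant passenger strand in vehicle-treated cells, had normalized values of 177, 616 and 995 there and of 336, 207 and 64.6 in the WA libraries. The groups overlapped, since vehicle replicate 1 lay under WA replicates 1 and 2. The difference of -1.52 on the log2 scale (standard error 1.02, limma adjusted p of 0.378) did not pass the test. It was -0.85 without WA replicate 3, -0.996 without vehicle replicate 3 and -2.24 without vehicle replicate 1. let-7a-2-3p, from the chromosome 11 copy of let-7a, was at 82.6, 54.0 and 100.3 with vehicle, against 52.2, 37.5 and 80.4 with WA. Its groups overlapped, and its log2 fold change of -0.49 (standard error 1.05) was within the spread of the libraries, with a limma adjusted p of 0.763, and lay between -0.78 and -0.24 when 1 library was left out.

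let-7e-3p was the steadiest strand in vehicle-treated cells, with normalized values of 43.3, 37.4 and 44.3. In the WA libraries it was listed at 0 in replicate 1 and was at 30.4 and 42.8 in replicates 2 and 3. The zero allows a value of up to 17.4 in that library, and WA replicate 3 lay inside the vehicle range. The log2 fold change of -1.94 (standard error 1.64, limma adjusted p of 0.455) went to -0.20 when WA replicate 1 was left out. let-7f-2-3p lay under the filter and was left out of the fit of 327 miRNAs. Its reads numbered 22, 22 and 44 with vehicle and 0, 4 and 0 with WA, which makes normalized values of 29.8, 6.28 and 13.4 against 0, 7.15 and 0. The floor of 17.4 in WA replicate 1 is above 2 of these vehicle values, so no fold of the means is given. When all 413 miRNAs were fitted without a filter, its log2 fold change was -2.88 with an unadjusted p of 0.0348 and a limma adjusted p of 0.123.

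let-7c-3p and let-7i-3p had higher estimates in WA-treated cells, neither past the test. let-7c-3p was listed at 0 in vehicle replicate 1 and was at 32.3 and 62.0 in vehicle replicates 2 and 3. In the WA libraries it was at 255 and 159 in replicates 1 and 2 and at 6.76 in replicate 3, so the WA group held both the highest and one of the lowest values. Its log2 fold change was 2.41 (standard error 2.08, 95% interval -2.44 to 7.27) with a limma adjusted p of 0.461. Without WA replicate 3 the estimate was 3.98 with a limma adjusted p of 0.134. Without vehicle replicate 1, the library listed at 0, the estimate was 0.58.

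let-7i-3p was at 5.42, 39.4 and 41.3 with vehicle, against 63.8, 35.7 and 169.8 with WA. The lowest value, in vehicle replicate 1, is 4 reads, and WA replicate 2 lay inside the vehicle range. The estimate of 1.74 on the log2 scale (standard error 1.34, limma adjusted p of 0.436) was within the spread of the libraries. It was 0.84 without vehicle replicate 1 and 1.13 without WA replicate 3.

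**Figure D2:**
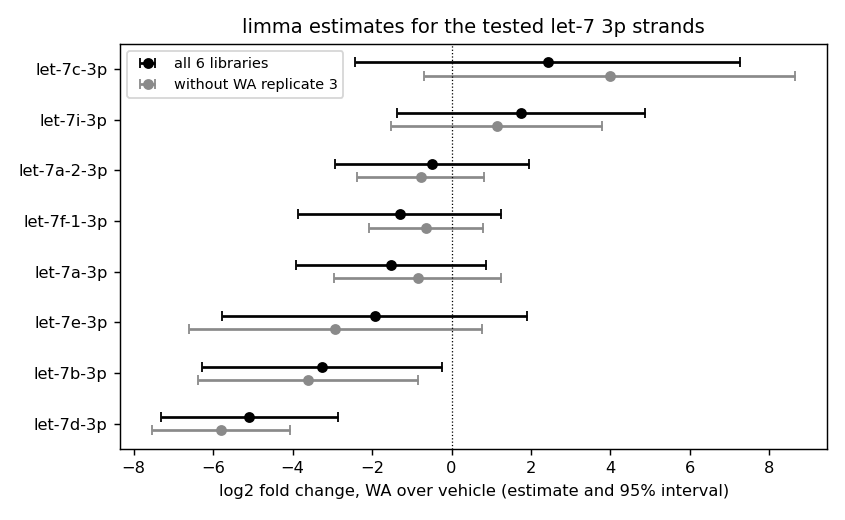
Log2 fold change of WA over vehicle for the 8 tested let-7 3p strands, with the 95% interval from limma, for all 6 libraries (black) and without WA replicate 3 (grey). Only the intervals of let-7d-3p and let-7b-3p lie wholly below 0, in both fits, and these intervals are not adjusted for the number of miRNAs tested.

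By estimate, 6 of the 8 tested strands were lower and 2 higher in WA-treated cells, with a median log2 fold change of -1.41. Of all 327 tested miRNAs 198 (60.6%) were lower, with a median of -0.91. Without WA replicate 3 the strands with an adjusted p under 0.05 by limma were let-7d-3p and let-7b-3p, where 45.0% of all tested miRNAs were called. With vehicle replicates 2 and 3 set against WA replicates 1 and 2, the pairs most alike within their groups, let-7d-3p (-5.31) and let-7a-3p (-1.56) were lower and let-7c-3p (2.14) was higher, with limma adjusted p-values of 0.00107, 0.0295 and 0.0207. In that comparison, chosen after the data were seen, 71.9% of all tested miRNAs were called.

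The order of the strands differed between the groups. By their means, let-7d-3p, let-7a-3p, let-7b-3p, let-7f-1-3p and let-7a-2-3p followed each other in vehicle-treated cells, each above the next in all 3 libraries. The ranges of neighbours were apart for let-7f-1-3p over let-7a-2-3p and for let-7a-2-3p over let-7e-3p. Below these, the ranges of neighbours overlapped from let-7e-3p through let-7c-3p and let-7i-3p to let-7f-2-3p, although every let-7e-3p value lay above every let-7f-2-3p value. In WA-treated cells let-7a-3p had the highest mean, let-7d-3p ranked 4 and let-7b-3p ranked 8, and no neighbours in the order had ranges that were apart. The 8 strands with a sequence are 21 or 22 bases long, so their levels were compared without a correction for length.

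Together the 9 strands had 4264, 1424 and 2769 reads per 1000000 in vehicle replicates 1 to 3, with 95% Wilson intervals of 4115 to 4418, 1390 to 1458 and 2719 to 2819. In WA replicates 1 to 3 they had 940 (800 to 1104), 597 (536 to 664) and 330.1 (307 to 355). The intervals cover counting error only, since reads without molecular identifiers are not independent molecules, and the intervals of libraries of the same group did not overlap. All 3 WA libraries lay under the vehicle libraries. let-7d-3p made up 86.2%, 46.7% and 52.0% of the summed normalized value with vehicle, against 4.08%, 4.75% and 25.6% with WA. The summed normalized value was 3200 ± 1123 (SD, n = 3) with vehicle and 669 ± 160 (SD, n = 3) with WA. Without let-7d-3p it was 1102 ± 572 (SD, n = 3) and 601 ± 204 (SD, n = 3), and the libraries of the groups then overlapped, with vehicle replicate 1 at 566 and WA replicate 1 at 817.

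The 3p strand was next compared with the 5p strand of its own hairpin, a ratio that does not depend on how the libraries were scaled, apart from the 1 added to each value before taking its log2. let-7d-3p had the highest such ratio in every library. There were 35.1, 41.9 and 83.7 units of let-7d-3p per 100 units of let-7d-5p in vehicle replicates 1 to 3, and 12.8, 5.42 and 1.54 in WA replicates 1 to 3. The groups did not overlap. The 5p strand, the denominator, was at 10096, 2165 and 2206 with vehicle, against 272, 527 and 9219 with WA. It was low together with the 3p strand in WA replicates 1 and 2, and high in WA replicate 3. The difference in the log2 ratio was -3.36 (95% interval -5.91 to -0.81), with an unadjusted p of 0.0162 and a limma adjusted p of 0.134 over the 91 arm pairs tested.

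let-7f-1-3p had the ratio with the least spread in WA-treated cells. Per 100 units of let-7f-5p, which also comes from the let-7f-2 hairpin, there were 0.371, 0.441 and 0.697 units with vehicle, against 0.118, 0.138 and 0.0989 with WA. The groups did not overlap, and the highest WA ratio was in replicate 2. The log2 ratio went from -7.68 ± 0.467 (SD, n = 3) to -9.70 ± 0.213 (SD, n = 3), a difference of -2.02 (standard error 0.881, limma adjusted p of 0.246).

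let-7a-2-3p showed 0.165, 0.242 and 0.440 units per 100 units of let-7a-5p with vehicle, against 0.113, 0.0599 and 0.0342 with WA, again without overlap. The denominator comes from 3 hairpins and was 234802 in WA replicate 3 against at most 62594 in the other WA libraries. The log2 ratio differed by -2.08 (standard error 0.972, limma adjusted p of 0.285). For let-7e-3p the difference was -3.19 (standard error 1.28), with an unadjusted p of 0.0383 and a limma adjusted p of 0.218, and its groups overlapped. let-7e-3p was listed at 0 in WA replicate 1, where a value of up to 17.4 remains possible. Without that library its difference was -2.24, with a limma adjusted p of 0.529. The differences of let-7a-3p (-3.11), let-7b-3p (-1.98) and let-7c-3p (-0.60) came with groups that overlapped and limma adjusted p-values of 0.297, 0.737 and 0.934. Leaving out WA replicate 3 took that of let-7a-3p to -1.73 and that of let-7b-3p to -0.09, and leaving out WA replicate 1 took that of let-7b-3p to -4.03. For let-7f-2-3p, fitted only without the filter, the difference was -3.60 with a limma adjusted p of 0.107. Its size is uncertain, since the strand was listed at 0 in WA replicates 1 and 3 and the floor in replicate 1 is 17.4.

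The let-7i pair differed in the opposite direction. It had 0.0523, 0.0355 and 0.0555 units per 100 units of let-7i-5p with vehicle, against 0.250, 0.114 and 0.196 with WA. Every WA library lay above every vehicle library. The log2 ratio differed by 1.84 (standard error 0.903, limma adjusted p of 0.297) and did not pass the correction.

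**Figure D3:**
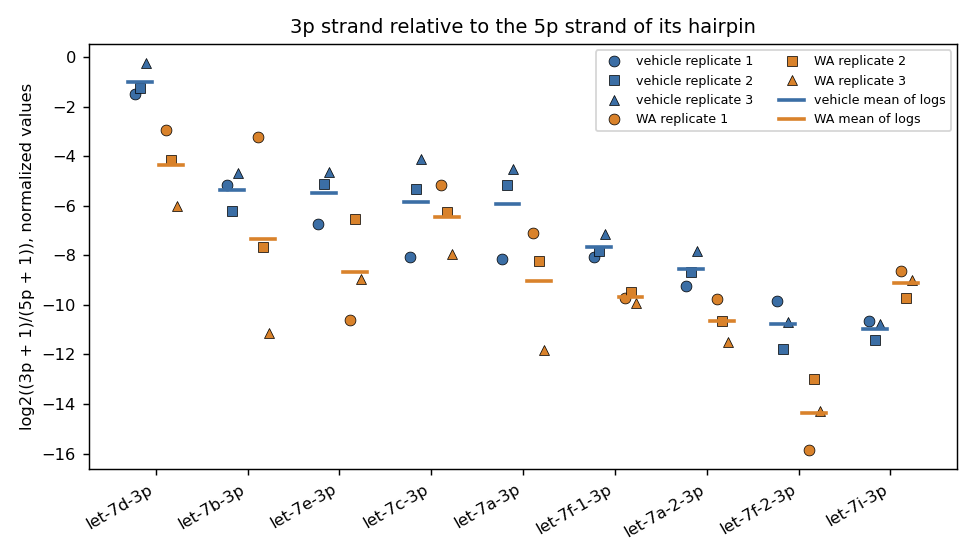
Log2 of the 3p over the 5p normalized value, with 1 added to each, for the 9 let-7 3p strands in each library. Points are single libraries, with the replicate given by the shape, and bars are group means. The WA libraries lie below the vehicle libraries for let-7d-3p, let-7f-1-3p, let-7a-2-3p and let-7f-2-3p, and above them for let-7i-3p. let-7f-2-3p had 0, 4 and 0 reads with WA. Its gap is uncertain, since the zero in WA replicate 1 allows a normalized value of up to 17.4.

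By estimate, the ratio was lower in WA-treated cells for 7 of the 8 tested let-7 pairs, with a median difference of -2.05. Over all 91 tested pairs 49 (53.8%) were lower, with a median of -0.13. No let-7 pair and none of the 91 pairs (0%) had a limma adjusted p under 0.05. At an unadjusted p under 0.05 there were 18 pairs, 10 of them lower (11.0%), and 2 of the 8 let-7 pairs, let-7d and let-7e, were among these. The groups did not overlap with lower WA values for 3 of the 8 let-7 pairs, against 13.2% of all pairs, and with higher WA values for 1, against 13.2% of all pairs. With vehicle replicates 2 and 3 against WA replicates 1 and 2, the pairs of let-7a-3p (-2.82), let-7d-3p (-2.79) and let-7f-1-3p (-2.11) had limma adjusted p-values of 0.0186, 0.0239 and 0.0262, where 39.6% of all pairs were called.

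**Figure D4:**
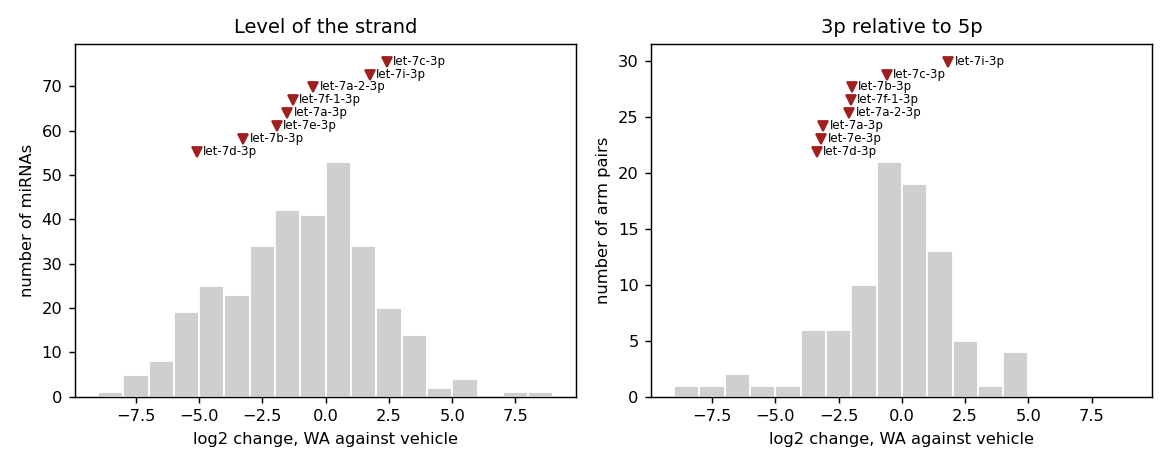
Histograms of the log2 change in WA-treated against vehicle-treated cells, with 1 log2 unit per bar, for the level of 327 miRNAs (left) and the 3p over 5p ratio of 91 arm pairs (right). Red triangles mark the 8 let-7 3p strands by their position on the horizontal axis, and their height only keeps the names apart. let-7d-3p lies furthest to the left in both, and 7 of the 8 triangles lie to the left of 0 in the right panel.

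Strands of the chromosome 9 hairpins were also set against each other, in comparisons chosen after their values were seen. let-7d-3p was 33.5, 8.02 and 11.0 times let-7f-1-3p in the vehicle libraries and 0.500, 0.308 and 7.27 times in the WA libraries. The groups did not overlap, with p = 0.1 by the two-sided exact permutation test, although WA replicate 3 lay close to vehicle replicate 2. let-7d-3p was 19.9, 1.47 and 1.86 times let-7a-3p with vehicle, against 0.103, 0.138 and 2.198 times with WA. These groups overlapped in WA replicate 3, with p = 0.3 by the same exact test. let-7a-3p was 1.68, 5.45 and 5.93 times let-7f-1-3p in the vehicle libraries and 4.83, 2.23 and 3.31 times in the WA libraries, with groups that overlapped and p = 0.8 by the same exact test.

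miRNAs encoded beside a let-7 hairpin were followed as a list, since they can share its primary transcript. They were the arms of miR-98 (beside let-7f-2), miR-100 and miR-125b-1 (let-7a-2), miR-99a and miR-125b-2 (let-7c), miR-99b and miR-125a (let-7e) and miR-4763 (let-7a-3 and let-7b). Of these, 12 were in the table and tested, and 0 passed a limma adjusted p of 0.05, while 1 had an unadjusted p under 0.05. Among all 327 tested miRNAs limma called 18 (5.50%), and 86 had an unadjusted p under 0.05. Estimates were higher with WA for 8 and lower for 4, with a median log2 fold change of 0.73. Over all tested miRNAs 60.6% of estimates were lower, as given above. Without WA replicate 3 limma called 4 of the 12, miR-98-5p and miR-100-3p with higher and miR-99b-5p and miR-99b-3p with lower values in WA-treated cells, where 45.0% of all tested miRNAs were called. In all 6 libraries miR-100-3p was the one with an unadjusted p under 0.05, at 0, 10.6 and 12.5 with vehicle, against 104, 76.8 and 27.8 with WA. The estimate was 3.52 on the log2 scale (standard error 1.40, limma adjusted p of 0.176). Beside let-7c, miR-125b-2-3p was listed at 0 in vehicle replicate 1 and was at 312 and 233 in the others, and at 817, 854 and 24.8 in WA replicates 1 to 3. It had, like let-7c-3p, its highest values in WA replicates 1 and 2 and its low values in vehicle replicate 1 and WA replicate 3. miR-99a-5p, also beside let-7c, was low in these libraries too but highest in vehicle replicate 2. It was at 90.7, 14089 and 10558 with vehicle, against 11786, 12905 and 385 with WA. Beside let-7e, miR-99b-3p was at 511, 1107 and 1211 with vehicle, against 151, 189 and 684 with WA, with a limma adjusted p of 0.239. The other neighbours of let-7e did not all go the same way. Every WA library lay above every vehicle library for miR-125a-3p, with an estimate of 0.77 on the log2 scale (limma adjusted p of 0.620). The estimates of miR-99b-5p (-1.42) and miR-125a-5p (-0.69) were lower with WA, and their groups overlapped. miR-98-3p, which carries the seed UAUACAA of let-7a-3p, was at 67.7, 12.9 and 19.3 with vehicle, against 168, 111 and 9.77 with WA.

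For the 2 most abundant let-7 passenger strands, the miRNAs with the most similar levels were sought by the Pearson correlation of log2(normalized value + 1) over the 6 libraries, given as a description. For let-7d-3p these were miR-877-3p (0.996), miR-4787-3p (0.994) and miR-6511b-3p (0.993). All 3 were listed at 0 in WA replicates 1 and 2 and had normalized values of 82.6 or less in the other libraries. For let-7a-3p they were miR-760 (0.986), miR-374b-5p (0.977) and miR-19a-3p (0.974). The points share their libraries and size factors.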

How the data were processed

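Small RNA libraries of 3 vehicle-treated and 3 WA-treated samples were analysed. Per the paper's methods and the submitters' processing notes, the authors trimmed adapters (Trim Galore), filtered reads by length, aligned them with Bowtie to GRCh38.p10, set aside reads of further noncoding RNA classes and compared what was left with mature human miRNAs. The signal the authors deposited for a miRNA is its reads over a size factor of the library from DESeq2. Columns of the authors' comparison (fold ratio, log2 fold change, p-value and its adjusted form) were deposited too and were not used.

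Only WA replicate 1 to 3 and vehicle replicate 1 to 3 entered the fits, without pairing. limma 3.58.1 in R 4.3.3 was applied to log2(normalized value + 1) with a variance trend and to log2((3p + 1)/(5p + 1)) without one, two-sided, with Benjamini-Hochberg adjustment over all tested miRNAs or pairs. The filter kept miRNAs reaching 10 in 3 or more libraries, and pairs with both arms kept. A numbered 3p copy without a 5p row of its own was paired with the unnumbered 5p row. Single strands were compared by exact permutation tests. The planned tests on read counts were not run because too few low values fix the step that would turn values into reads. The reads, floors and Wilson intervals given above rest on the same step and share this doubt. Values were taken as whole multiples within 0.01 of a step. Both fits were tested on simulated data in which a known set changed by 3 on the log2 scale. All 52 changed of 352 simulated miRNAs were called and 0 of 300 unchanged ones, and for arm pairs 26 of 26 and 0 of 72. The simulated libraries had the same fixed spread, and none stood apart from its group, unlike the real ones. These calls therefore check the fits and do not measure their power in the real data. The text names all 9 strands, the list of cluster neighbours and the 3 miRNAs most correlated with each of the 2 most abundant strands. The members, lists and tests were chosen with earlier results of these data known. Python 3.11.15, numpy 2.4.6, pandas 2.3.3, scipy 1.17.1 and matplotlib 3.10.9 were used. Replicates of a group differed by more than sampling noise in every pair. Hairpin positions were matched to GENCODE release 44.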

Additional observations from a re-analysis of the deposited data

How the results depend on the processing

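The number of let-7 3p strands with a limma adjusted p under 0.05, 1 by the settings of the report, was 1 with total-count, upper-quartile and trimmed mean of M values scaling, with pseudocounts of 0.1 and 10, with no filter, without the variance trend and with the replicate number as a block, where the adjusted p of let-7d-3p was 0.0478. It was 0 where every library had to reach 10 (adjusted p 0.0503 among 173 tested miRNAs) and lay between 0 and 2 when 1 library was left out (0 without any of the 3 vehicle replicates or WA replicates 1 and 2). It was 3 for vehicle replicates 2 and 3 against WA replicates 1 and 2, a setting added after the data were seen. By the study's criteria the number was 2. It was 3 with no filter, where let-7f-2-3p was added, 1 with upper-quartile scaling, 1 with a value of 10 in every library and 1 with the replicate block, between 1 and 2 when 1 library was left out, and 4 in the added setting. The number of let-7 arm pairs called was 0 and moved only in the added setting, to 3. The replicate block left it at 0. The number of strands whose groups do not overlap was 3, lay between 3 and 6 when 1 library was left out, was 2 with trimmed mean of M values scaling, and was 7 in the added setting, where fewer libraries make a gap easier. Of all tested miRNAs 19.6% had such a gap with lower WA values by the settings of the report. That share is not given for the other settings, so the larger counts cannot be judged against it. The log2 ratio of the summed level was -2.26, was -0.88 without let-7d-3p and lay between -2.52 and -2.04 when 1 library was left out. The change in the arm ratio of let-7c-3p reversed to 0.46 with a pseudocount of 0.1 and lay between -1.72 and 0.26 when 1 library was left out. That of let-7b-3p reversed to 0.0058 in the added setting. The cause was not tested. Of the other values for single strands, none changed direction, and let-7d-3p lost its call under a value of 10 in every library and in 5 of the 6 fits that left out a library. Deviations of same-numbered libraries correlated at -0.069, 0.057 and -0.087. These values show no pairing by replicate number but cannot exclude it, with 3 libraries per group and some standing apart. The blocked fits are given only here. Over all tested miRNAs limma called 18, and 7 with a pseudocount of 0.1, 7 with a pseudocount of 10, 53 with no filter, 0 where each library had to reach 10 (29 at an unadjusted p under 0.05), 24 with the replicate block, between 0 and 147 when 1 library was left out and 235 in the added setting. Over all arm pairs it called 0, with 14 without WA replicate 3 and 36 in the added setting. The planned tests on read counts were not run, since too few low values fix the step behind them. WA replicate 1, with 156442 reads, limits what can be seen of the less abundant strands.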

Other observations

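let-7a-5p and let-7f-5p each come from more than 1 hairpin, so the 3p strands of all copies in the table were also summed against them. The let-7a copies together had 0.520, 3.01 and 4.81 units per 100 units of let-7a-5p with vehicle, against 0.838, 0.391 and 0.0618 with WA, and the groups overlapped in WA replicate 1. The let-7f copies together had 0.476, 0.465 and 0.753 units per 100 units of let-7f-5p with vehicle, against 0.118, 0.149 and 0.0989 with WA, without overlap.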
